A study of Mus musculus with 17 samples.

Results

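Desmosomes are button-like junctions that tie the keratin filaments of neighbouring epithelial cells to each other, and the genes described here code for their parts and for 2 related proteins of the cornified envelope. The set names 9 mouse genes: Jup, Pkp2, Pkp3, Dsg2, Dsc2, Perp, Ppl, Evpl and Dsp. A gene was taken at the transcript cluster, the probe group of one gene on the array, that carries its symbol and no other. By this rule 8 of the 9 genes were measured, each by a single transcript cluster, among 14939 transcript clusters with 1 symbol and 23238 in all. No transcript cluster carried the symbol of Dsp, which codes for desmoplakin, so only its promoter is described here.

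The arrays came from SPC/cRaf mice, whose transgene is driven by the surfactant protein C promoter and so in lung epithelium, and from non-transgenic mice. Tissue was cut from haematoxylin-stained cryosections with a laser, and its RNA was amplified and hybridised to 17 Affymetrix mouse exon arrays. There were 4 adenocarcinomas of transgenic mice aged 11.5 to 14 months, 3 labelled male and 1 female. There were 4 dysplasias, which are lesions that precede tumours, and 4 pieces of microscopically unaltered lung, all from transgenic animals labelled male and aged 5 to 6 months. The 4 animal labels of the dysplasias are also those of the unaltered pieces, and in each of the 3 transgenic groups 1 array carries the names of 2 animals. The remaining 5 arrays came from wild-type lungs of animals aged 7 to 11 months, 2 labelled male and 3 female. Within a group each array has its own animal label. Apart from the dysplasias and the unaltered pieces, no groups overlap in age.

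In a desmosome the cadherins Dsg2 and Dsc2 reach across the gap between cells. Inside the cell the armadillo proteins plakoglobin (Jup) and the plakophilins (Pkp2 and Pkp3) bind the cadherin tails and pass the link to desmoplakin, which holds keratin. Perp is a tetraspan membrane protein of desmosomes and a target of p53, and periplakin (Ppl) and envoplakin (Evpl) are plakins that join desmosomes to the cornified envelope of stratified epithelia. Simple epithelia such as that of the lung also build desmosomes, with Dsg2, Dsc2 and Pkp2 as the usual isoforms. Plakoglobin also sits in the adherens junctions of endothelium, and cardiac muscle holds desmosomal proteins in its intercalated discs.

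The values are log2 signals, so a difference of 1 is a doubling, and array medians lay between 6.67 and 6.85. Levels of single genes are not ranked against each other, because each has its own probes. Low levels are set against the lower quartile of each array. The type II cell markers averaged 12.0 to 12.8 in the 4 groups, and the club cell marker Scgb1a1 was also present, at 9.69 to 13.92 over the 17 arrays. Among the non-transgenic arrays, replicates 4 and 5 stood apart: their rank correlation with replicates 1 to 3 over all transcript clusters was 0.975 to 0.980, and it was at least 0.989 within each set. Labelled sex disagreed with the Y-linked genes Kdm5d and Eif2s3y on 4 arrays, and these genes were low only on non-transgenic replicates 4 and 5.

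Several of these genes were higher in the lesions, in numbers that differed between comparisons. In adenocarcinoma 6 of the 8 genes were higher than in non-transgenic lung and 1, Jup, was lower at an adjusted p under 0.05 (limma), the threshold for a call here. Over all transcript clusters 13.6% were higher and 16.4% lower in that comparison. In dysplasia 5 of the 8 genes were higher than in unaltered tissue and none was lower, against 15.1% higher and 5.32% lower over all transcript clusters. That count of 5 was 2 without dysplasia replicate 1 or without unaltered replicate 1, 2 or 4, and 3 without dysplasia replicate 2 or 3. It was also 2 with no replicate block, with a fixed replicate block or after quantile normalization. Over all settings, the share of tested transcript clusters called in this comparison, in either direction, ran from 7.91% to 38.2%. Pkp2 was 1.51-fold higher in dysplasia than in unaltered lung, and Perp was 2.10-fold higher in adenocarcinoma than in non-transgenic lung. These are pieces of tissue, so fewer cells of a type and less RNA per cell cannot be told apart. How values fell on each array is drawn in the plot of the 8 genes by array.

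**Figure D1:**
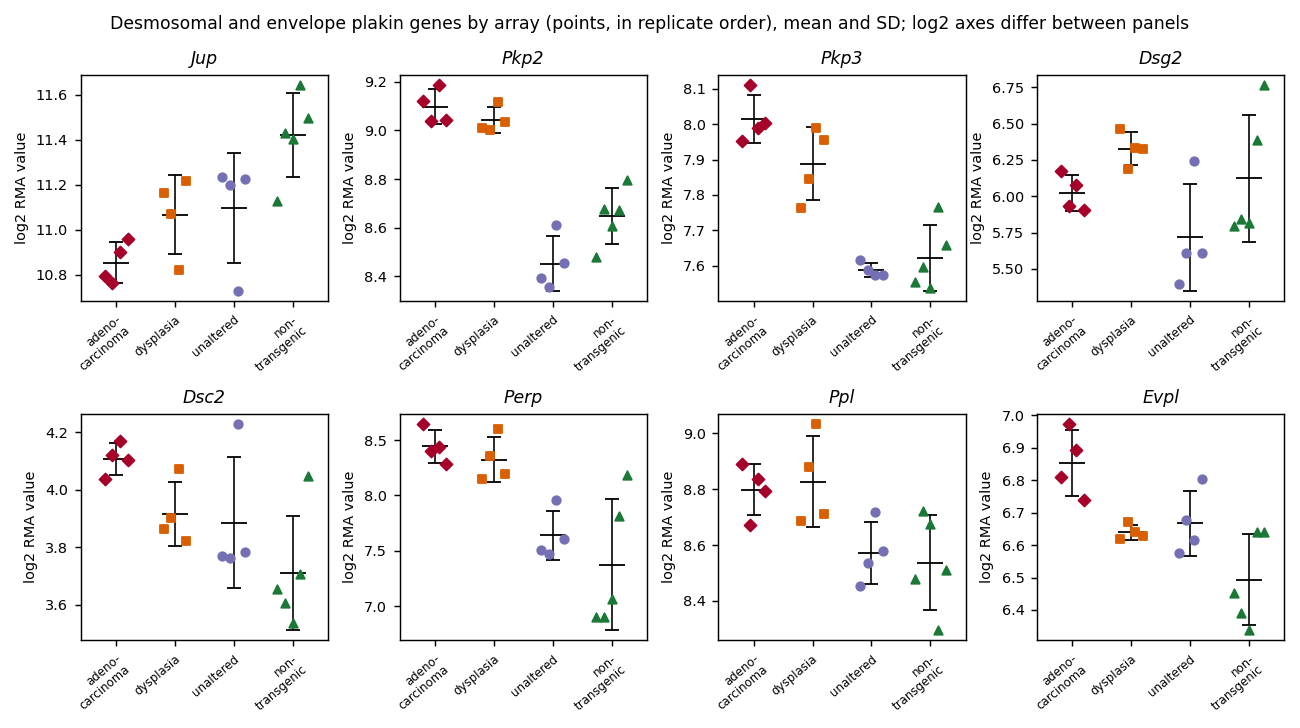
Log2 values (y axes, which differ between panels) of the 8 measured genes on each of the 17 arrays, with adenocarcinoma, dysplasia, unaltered and non-transgenic tissue from left to right; points are arrays in replicate order, long bars are group means and whiskers are 1 SD (n = 4, 4, 4 and 5). Pkp2 lay at or above 9.003 on every lesion array and at or below 8.80 on every other array, and Jup had its lowest group mean in adenocarcinoma, with arrays at 10.76 to 10.96.

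Pkp2 codes for plakophilin 2, the plakophilin of simple epithelia and heart. Its log2 values were 9.12, 9.04, 9.19 and 9.04 in adenocarcinoma and 9.01, 9.003, 9.12 and 9.03 in dysplasia. They were 8.39, 8.36, 8.61 and 8.45 in unaltered tissue and 8.48, 8.68, 8.60, 8.67 and 8.80 in non-transgenic lung. All 8 lesion arrays lay above all 9 arrays of tissue without a lesion. The share of all transcript clusters that separate in this way was not computed. It is at most 7.56%, the share with dysplasia above non-transgenic lung without overlap. Pkp2 was higher by 0.59 ± 0.06 in dysplasia than in unaltered lung (log2, SE; limma adjusted p = 2.19e-05) and by 0.45 ± 0.07 in adenocarcinoma than in non-transgenic lung (limma adjusted p = 0.000102). It was also higher by 0.40 ± 0.07 in dysplasia than in non-transgenic lung (limma adjusted p = 0.000778). These 3 calls held in each alternative setting tried, also with any single array left out.

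Pkp3 codes for plakophilin 3, which is widespread in epithelial desmosomes. Its values were 7.95, 8.11, 7.99 and 8.004 in adenocarcinoma and 7.76, 7.84, 7.99 and 7.96 in dysplasia. They were 7.62, 7.59, 7.57 and 7.57 in unaltered tissue and 7.55, 7.60, 7.54, 7.77 and 7.66 in non-transgenic lung. Both lesion groups lay above the unaltered group, whose 4 arrays spanned 0.04, and only the lowest dysplasia array reached down into the non-transgenic range. The rise was 0.39 ± 0.07 in adenocarcinoma against non-transgenic lung (limma adjusted p = 0.000214) and held in every setting tried. It was 0.30 ± 0.06 in dysplasia against unaltered lung (limma adjusted p = 0.00254), and this call was lost with quantile normalization (0.19, limma adjusted p = 0.059). It was also lost with the fixed replicate block (limma adjusted p = 0.0803) and without unaltered replicates 2 and 3 (limma adjusted p = 0.056).

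Jup codes for plakoglobin, the armadillo protein that desmosomes share with adherens junctions. It had values of 10.79, 10.76, 10.90 and 10.96 in adenocarcinoma and 11.16, 11.07, 10.82 and 11.21 in dysplasia. It had 11.23, 11.20, 10.73 and 11.23 in unaltered tissue and 11.13, 11.43, 11.41, 11.64 and 11.50 in non-transgenic lung. Adenocarcinoma lay below all 5 non-transgenic arrays, while dysplasia and unaltered tissue overlapped along their whole range. Jup was lower by 0.57 ± 0.12 in adenocarcinoma than in non-transgenic lung, 0.675 of its level there (log2 fold change -0.57; limma adjusted p = 0.00122), and this call held in every setting tried. In dysplasia it was lower than in non-transgenic lung by 0.35 ± 0.12 (log2 fold change -0.35; limma adjusted p = 0.0472), a call lost in 24 of 35 alternatives. Its difference between dysplasia and unaltered tissue was -0.03 ± 0.11 (limma adjusted p = 0.883).

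Endothelial markers also fell in the lesions. All 12 were lower in adenocarcinoma than in non-transgenic lung, with a median log2 fold change of -2.26, and 11 of 12 were lower in dysplasia than in unaltered tissue, with a median of -0.67. Their mean level was 9.14 to 9.21 in adenocarcinoma, 9.90 to 10.67 in dysplasia, 10.81 to 11.10 in unaltered tissue and 11.36 to 11.50 in non-transgenic lung. Replicate 3 of the dysplasias, replicate 3 of the unaltered pieces and replicate 2 of the adenocarcinomas were lowest of their groups both for Jup and for these markers. In non-transgenic lung the order differed. Replicate 1 was lowest for Jup (11.13) with a marker mean of 11.40, and replicate 5 had the lowest marker mean (11.36) with Jup at 11.50. The part of endothelial cells in the Jup result was not tested.

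The promoter of Jup is shown because it is the only gene of the set that was called lower, and because the promoter table used here, RefSeq on GRCm38.p6, held 2 of the 9 genes, Jup and Dsp. The 250 bases before the Jup start lie at chr11:100397791-100398040 on the minus strand.
Jup promoter: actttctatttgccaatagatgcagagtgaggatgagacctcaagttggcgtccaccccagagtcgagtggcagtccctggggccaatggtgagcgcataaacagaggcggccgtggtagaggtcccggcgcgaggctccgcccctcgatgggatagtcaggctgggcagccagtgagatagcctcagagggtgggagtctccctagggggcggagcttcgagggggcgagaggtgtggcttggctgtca
Both strands were searched for TGANTCA (AP-1), AACCNGTT (Grainyhead-like), CCGGAA (ETS) and CCACACCC (Kruppel-like), and the Jup window held 0 matches to each, so no letters are in capitals. The Dsp window also held 0 matches to each of them. Of 32851 promoter windows of this length, 6.75% held the AP-1 letters, 1.79% the Grainyhead-like letters, 12.0% the ETS letters and 3.20% the Kruppel-like letters.

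Dsg2 codes for desmoglein 2, the desmoglein of simple epithelia and heart. It had values of 6.18, 5.93, 6.08 and 5.91 in adenocarcinoma and 6.46, 6.19, 6.33 and 6.33 in dysplasia. It had 5.40, 5.61, 6.24 and 5.61 in unaltered tissue and 5.80, 5.84, 5.82, 6.39 and 6.77 in non-transgenic lung. Dysplasia lay above all adenocarcinoma arrays by a gap of 0.011 and above 3 of the 4 unaltered arrays, with unaltered replicate 3 inside its range. Dsg2 was higher by 0.61 ± 0.18 in dysplasia than in unaltered tissue (limma adjusted p = 0.0282). The adjusted p was 0.0543 to 0.104 without dysplasia replicate 1 or 4 or without unaltered replicate 1, 2 or 4. In adenocarcinoma against non-transgenic lung its difference was -0.10 ± 0.20 (limma adjusted p = 0.764), and the sign turned to 0.20 without non-transgenic replicates 4 and 5.

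Dsc2 codes for desmocollin 2, the partner cadherin of Dsg2. Its values were 4.04, 4.12, 4.17 and 4.10 in adenocarcinoma and 3.86, 3.90, 4.07 and 3.82 in dysplasia. They were 3.77, 3.76, 4.23 and 3.78 in unaltered tissue and 3.66, 3.61, 3.54, 3.71 and 4.05 in non-transgenic lung. All of these lie under the lower quartile of each array, which was 4.97 to 5.11. The 4 adenocarcinoma arrays stood close together. Of the non-transgenic arrays only replicate 5 reached their range, while dysplasia replicate 3 lay inside it and unaltered replicate 3 above it. Dsc2 was higher by 0.40 ± 0.11 in adenocarcinoma than in non-transgenic lung (limma adjusted p = 0.0103), and by 0.23 without non-transgenic replicates 1 to 3, where the call was lost (limma adjusted p = 0.260). Its difference between dysplasia and unaltered tissue was 0.03 ± 0.10 (limma adjusted p = 0.874).

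Perp codes for the tetraspan protein that desmosomes of stratified epithelia need. It had values of 8.64, 8.40, 8.44 and 8.29 in adenocarcinoma and 8.15, 8.35, 8.60 and 8.19 in dysplasia. It had 7.51, 7.47, 7.96 and 7.61 in unaltered tissue and 6.90, 6.90, 7.07, 7.81 and 8.19 in non-transgenic lung. The non-transgenic arrays were split, with replicate 5 inside the dysplasia range, replicate 4 between it and the rest, and replicates 1 to 3 below every other array. Perp was higher by 1.07 ± 0.23 in adenocarcinoma than in non-transgenic lung (limma adjusted p = 0.00179), with no overlap between the groups. Without non-transgenic replicates 1 to 3 the difference was 0.44 and no longer called (limma adjusted p = 0.0667), and without replicates 4 and 5 it was 1.49 and called.

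In dysplasia Perp was higher by 0.69 ± 0.21 than in unaltered tissue (limma adjusted p = 0.0306), again with no overlap. This call was lost without dysplasia replicate 1, 2 or 3 and without unaltered replicate 1, 2 or 4, with adjusted p from 0.0515 to 0.0973. Against non-transgenic lung the dysplasias were higher by 0.95 ± 0.23 (limma adjusted p = 0.00784), and by 0.32 without non-transgenic replicates 1 to 3 (limma adjusted p = 0.226). The size of the Perp difference therefore rests in part on which non-transgenic arrays are used, while its direction was the same in each of these fits.

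Ppl codes for periplakin. Its values were 8.89, 8.67, 8.84 and 8.79 in adenocarcinoma and 8.68, 8.88, 9.03 and 8.71 in dysplasia. They were 8.45, 8.53, 8.72 and 8.58 in unaltered tissue and 8.48, 8.72, 8.67, 8.30 and 8.51 in non-transgenic lung. Unaltered replicate 3 and non-transgenic replicate 2 reached the range of the dysplasias, and the other arrays without a lesion lay below it. Ppl was higher by 0.26 ± 0.09 in dysplasia than in unaltered tissue (limma adjusted p = 0.0487). It was higher by 0.26 ± 0.09 in adenocarcinoma than in non-transgenic lung (limma adjusted p = 0.0477). Both calls lie just inside the threshold, and each was lost in 24 alternatives, of 36 and 35 tried.

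Evpl codes for envoplakin, which pairs with periplakin. Its values were 6.81, 6.97, 6.89 and 6.74 in adenocarcinoma and 6.62, 6.67, 6.64 and 6.63 in dysplasia. They were 6.57, 6.68, 6.62 and 6.80 in unaltered tissue and 6.45, 6.39, 6.34, 6.64 and 6.64 in non-transgenic lung. Adenocarcinoma stood above both dysplasia and non-transgenic lung with no overlap, while the dysplasias lay inside the range of unaltered tissue. Evpl was higher by 0.36 ± 0.08 in adenocarcinoma than in non-transgenic lung (limma adjusted p = 0.00186). Its differences were 0.21 ± 0.08 between adenocarcinoma and dysplasia (limma adjusted p = 0.113) and -0.03 ± 0.07 between dysplasia and unaltered tissue (limma adjusted p = 0.826). Without non-transgenic replicates 1 to 3 the difference between adenocarcinoma and non-transgenic lung was 0.21 and no longer called (limma adjusted p = 0.0805).

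**Figure D2:**
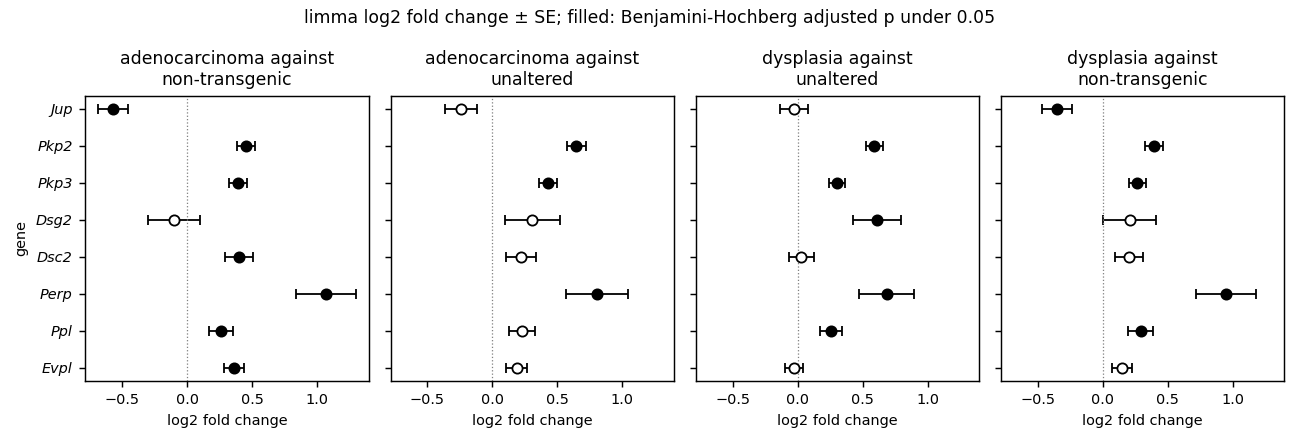
Log2 fold change (x axis) of each gene (y axis) in 4 comparisons, with bars of 1 SE; filled points have a limma adjusted p under 0.05. Pkp2, Pkp3 and Perp are filled to the right of 0 in all 4 panels, and Jup is filled to the left of 0 in both panels against non-transgenic lung.

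Dysplasia and unaltered tissue share animal labels, so each difference can be read within a label. Pkp2 was higher in dysplasia in 4 of 4 pairs, by 0.62, 0.65, 0.51 and 0.58. Perp was higher in 4 of 4 pairs, by 0.64, 0.88, 0.64 and 0.58. Pkp3 was higher in 4 of 4 pairs, by 0.15, 0.26, 0.42 and 0.38. Dsg2 was more uneven, with 1.07, 0.58, 0.09 and 0.71, and Ppl gave 0.23, 0.35, 0.31 and 0.13. The smallest Dsg2 value belongs to pair 3, whose unaltered piece is the one with the high Dsg2 level. Jup, Dsc2 and Evpl had differences of both signs, from -0.18 to 0.14. The array median was also higher in dysplasia in each pair. It was 6.84, 6.81, 6.81 and 6.85 in dysplasia and 6.75, 6.67, 6.77 and 6.73 in unaltered tissue. The share of all transcript clusters higher in 4 of 4 pairs was not computed. Counts of calls depended on the pairing: a fixed replicate block for the animal, fitted over these 8 arrays, left 2 genes called, Pkp2 and Perp, and no block left 2, Pkp2 and Pkp3.

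**Figure D3:**
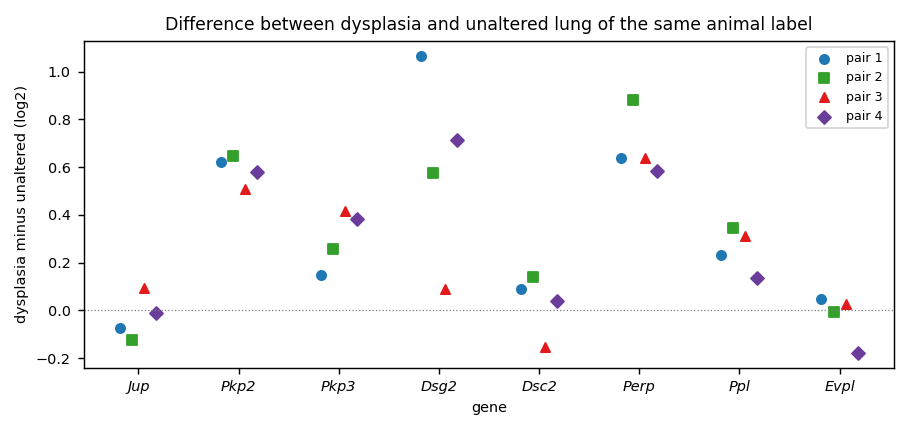
Dysplasia minus unaltered tissue on the log2 scale (y axis) for each gene (x axis), with 1 point for each of the 4 animal labels. Pkp2 lay between 0.51 and 0.65 in all 4 pairs, while Dsg2 ran from 0.09 to 1.07.

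In adenocarcinoma against non-transgenic lung the 8 genes had a median log2 fold change of 0.38, against 0.01 over all transcript clusters. The arrays of the 2 groups did not overlap for 5 genes, 4 higher (Pkp2, Pkp3, Perp and Evpl) and 1 lower (Jup), where 12.7% of all transcript clusters were higher and 15.2% lower in this way. With labelled age as a covariate 4 of the 7 calls remained, because Dsc2, Perp and Ppl no longer passed. The ages of these groups do not overlap. In dysplasia against unaltered tissue the median was 0.28, against 0.06 over all transcript clusters. Here 3 genes did not overlap and were higher, Pkp2, Pkp3 and Perp, and 0 were lower, against 15.4% and 5.62% of all transcript clusters. The split of all calls into higher and lower depends on scaling in this comparison, with 3504 higher and 1236 lower as deposited and 2218 higher and 2354 lower after quantile normalization.

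Dysplasia against non-transgenic lung shares the dysplasia and the non-transgenic arrays with these comparisons. It had 4 genes higher (Pkp2, Pkp3, Perp and Ppl) and 1 lower (Jup), against 7.62% higher and 9.86% lower over all transcript clusters. The Ppl call (limma adjusted p = 0.0454) was lost in 22 of 35 alternatives. The Pkp3 call was lost in 3 of 35: with labelled age as a covariate, with only the groups compared, and without non-transgenic replicates 1 to 3. The count of 5 was 3 without dysplasia replicate 2 or 3, non-transgenic replicate 4, unaltered replicate 1, 2 or 4, or adenocarcinoma replicate 1, 3 or 4. It was 2 with labelled sex or age as a covariate and 1, Pkp2, with only the groups compared. Only Pkp2 did not overlap, on the higher side, as did 7.56% of all transcript clusters, and 10.3% did not overlap on the lower side. Adenocarcinoma against unaltered tissue had 3 genes higher and 0 lower, against 16.8% and 10.1% over all transcript clusters. Pkp2 was higher by 0.65 ± 0.07 (limma adjusted p = 6.01e-06), Pkp3 by 0.43 ± 0.07 (limma adjusted p = 0.000192) and Perp by 0.81 ± 0.24 (limma adjusted p = 0.0201). These 3 also did not overlap, as did 19.3% of all transcript clusters on the higher side. With labelled age as a covariate 0 of the 3 were called. Pkp2 then had 0.48 ± 0.16, Pkp3 0.53 ± 0.16 and Perp 0.12 ± 0.52. The ages of adenocarcinoma and unaltered animals do not overlap, so that fit separates age from group poorly. Perp was also lost without unaltered replicate 2 (limma adjusted p = 0.0553) or adenocarcinoma replicate 1 (limma adjusted p = 0.0582). Without unaltered replicate 3 the count was 5, with Jup lower and Dsc2 higher in addition.

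In adenocarcinoma against dysplasia 0 of the 8 genes were called by limma, where 4.48% of all transcript clusters were higher and 7.48% lower. At an unadjusted p under 0.05 only Evpl passed. By p it ranked 4016 among the 23238 transcript clusters, so at least that many passed. Between the arrays, Evpl did not overlap on the higher side and Dsg2 on the lower side, against 9.34% and 11.8% of all transcript clusters. The difference of Dsg2 was -0.31 ± 0.21 (limma adjusted p = 0.419) and that of Pkp2 0.06 ± 0.07 (limma adjusted p = 0.707). In unaltered tissue against non-transgenic lung 0 of the 8 genes were called by limma, against 2.47% higher and 11.8% lower over all transcript clusters. None of the 8 was free of overlap, against 2.86% on the higher and 11.9% on the lower side. At an unadjusted p under 0.05 Jup, Pkp2 and Evpl passed. By p they ranked 4224, 4348 and 6256 among the 23238 transcript clusters, so at least 6256 passed. Jup differed by -0.33 ± 0.12 (limma adjusted p = 0.0739), Pkp2 by -0.19 ± 0.07 (limma adjusted p = 0.0782) and Evpl by 0.17 ± 0.08 (limma adjusted p = 0.148). Without non-transgenic replicates 4 and 5 Perp was higher in unaltered tissue by 0.68 (limma adjusted p = 0.00594), and without replicates 1 to 3 its difference was -0.36 (limma adjusted p = 0.159).

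Whether the step into adenocarcinoma differed from the step into dysplasia was tested as adenocarcinoma minus dysplasia less dysplasia minus unaltered tissue. Pkp2 was the only gene called, with a difference between the steps of -0.53 ± 0.12 (limma adjusted p = 0.0254), as 2.61% of all transcript clusters were called lower and 0.460% higher. Its first step was 0.59 and its second 0.06. This call was lost in 12 of 35 alternatives, and among single arrays without any of the 4 dysplasias, without unaltered replicate 2 and without adenocarcinoma replicate 2 or 4, with adjusted p from 0.0502 to 0.085. Dsg2 had -0.92 ± 0.34 (limma adjusted p = 0.147), the largest difference in size among the 8 genes, and Evpl had 0.24 ± 0.13 (limma adjusted p = 0.320).

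Genes that work with desmosomes were examined as lists. The counts are to be read against the shares of all transcript clusters, 13.6% higher and 16.4% lower in adenocarcinoma against non-transgenic lung, and 15.1% higher and 5.32% lower in dysplasia against unaltered tissue. The simple epithelial keratins, whose filaments desmosomes anchor, were higher in the lesions. In adenocarcinoma against non-transgenic lung 4 of 4 measured were higher, among them Krt18 by 2.11 and Krt23 by 2.03 on the log2 scale, and in dysplasia against unaltered tissue 3 of 4 were higher. The general epithelial markers, which share Krt18 with that list, were higher for 9 of 9 in both comparisons, with medians of 1.73 and 1.01. The medians of the 8 desmosomal and plakin genes were 0.38 and 0.28. Of the desmosomal genes of stratified epithelia 6 of 9 were measured. Corneodesmosin (Cdsn) was the only one called in adenocarcinoma against non-transgenic lung, at 0.39, and Dsg3 had 0.17, Dsc3 0.10 and Pkp1 0.09, which did not pass. In dysplasia against unaltered tissue Dsc1 and Pkp1 fell, each with a log2 fold change of -0.28. The list's mean level was low, at 4.45 in adenocarcinoma, 4.26 in dysplasia, 4.36 in unaltered tissue and 4.27 in non-transgenic lung, and Dsg3, Dsg4, Dsc1 and Dsc3 lay under the lower quartile of each array.

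The other plakins had 2 measured genes, and dystonin (Dst), which links filaments to hemidesmosomes, was lower by 0.67 in adenocarcinoma than in non-transgenic lung (log2 fold change -0.67), while plectin (Plec) had 0.01. Of 19 measured cornified envelope genes, 4 were higher in adenocarcinoma than in non-transgenic lung and none was lower, where 13.6% of all transcript clusters were higher and 16.4% lower. They were involucrin (Ivl) at 2.55, the small proline-rich protein gene Sprr1a at 2.38, the cross-linking enzyme gene Tgm1 at 1.60 and Cnfn at 0.37. The other 15 did not pass, and the list median was 0.22. In dysplasia against unaltered tissue 1 of 19 was higher, Ivl at 0.98, against 15.1% of all transcript clusters. Sprr1a had 0.19 there and was higher by 2.15 in adenocarcinoma than in dysplasia (limma adjusted p = 6.35e-06). Stratified epithelial keratins had 3 of 9 higher in adenocarcinoma, among them Krt4 at 0.32 and Krt15 at 0.26, with a median of 0.19, and 1 of 9 lower in dysplasia, Krt15.

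**Figure D4:**
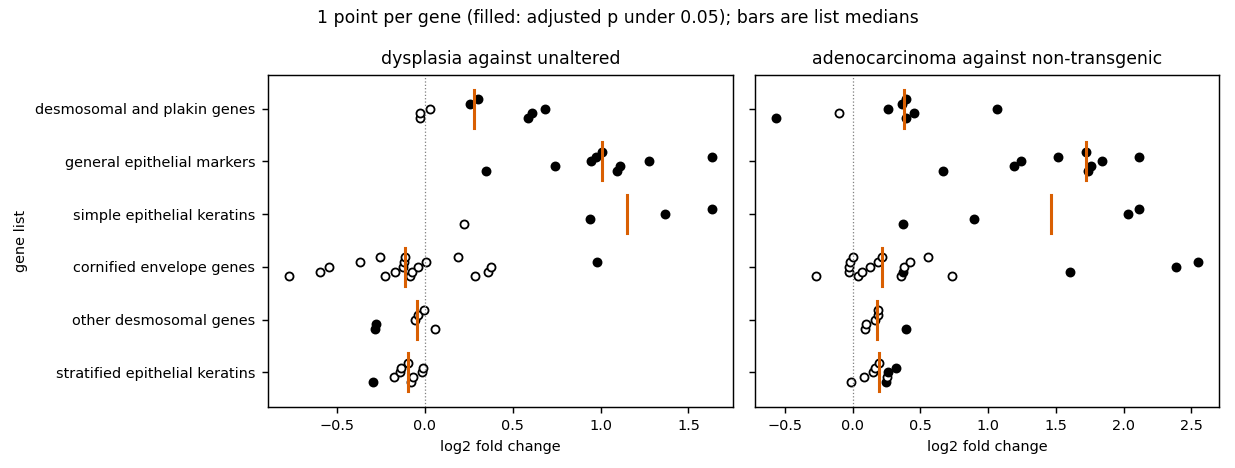
Log2 fold change (x axis) of each measured gene in 6 gene lists (y axis), in panels for dysplasia against unaltered tissue and for adenocarcinoma against non-transgenic lung; filled points have a limma adjusted p under 0.05 and vertical bars are list medians. The desmosomal and plakin genes have medians of 0.28 and 0.38, the general epithelial markers 1.01 and 1.73, and in the cornified envelope list Ivl, Sprr1a and Tgm1 lie apart on the right in adenocarcinoma.

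Adherens junctions are the neighbours that share plakoglobin. Of their genes, in adenocarcinoma against non-transgenic lung 2 of 9 measured were higher, Nectin4 by 1.38 and Cdh1 by 0.67, and 3 were lower, among them vinculin (Vcl), with a log2 fold change of -1.25. The shares over all transcript clusters were 13.6% and 16.4%. Ctnnb1, which codes for the armadillo protein closest to plakoglobin, had 0.19 (limma adjusted p = 0.118). In dysplasia against unaltered tissue 2 of 9 were higher and 1 lower, against 15.1% and 5.32%. Among 12 measured regulators of epithelial transcription and splicing, 8 were higher in adenocarcinoma and 6 in dysplasia, with Klf4 the only one lower in each. Ehf, an ETS factor, was higher by 1.87 and Esrp1, a splicing regulator, by 1.77 in adenocarcinoma. Of the Grainyhead-like factors, Grhl2 was higher by 1.41, whereas Grhl1 had 0.04 and Grhl3 0.18, and Trp63, the factor of basal cells, had 0.17, and these 3 did not pass.

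Markers of airway cells were uneven among the arrays. The mean log2 level of 8 club and ciliated cell markers was 6.37 to 7.39 in adenocarcinoma and 8.73 to 8.84 in dysplasia. It was 6.93, 8.21, 9.08 and 8.09 in unaltered tissue and 7.09, 7.32, 7.30, 8.89 and 9.15 in non-transgenic lung. Unaltered replicate 3 and non-transgenic replicates 4 and 5 were the highest of their groups, and the same arrays were highest of their groups for Perp and Dsg2, with unaltered replicate 3 and non-transgenic replicate 5 highest for Dsc2. Scgb1a1, one of these markers, was at 13.92 on unaltered replicate 3 and at 13.70 and 13.77 on non-transgenic replicates 4 and 5. These arrays were also highest of their groups for the general epithelial markers, with means of 9.37, 9.47 and 9.46. In adenocarcinoma, replicate 1 was highest for the airway mean, Perp and Dsg2. In dysplasia, replicate 2 had the highest airway mean and the lowest Dsg2, and replicate 1 the lowest airway mean and the highest Dsg2. Unaltered replicate 3 also had the highest mean of the 7 measured cardiac muscle markers, 7.21, against 5.28 to 6.26 on the other unaltered arrays and 5.20 to 5.63 on the remaining 13.

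With the airway marker mean as a covariate, chosen after seeing the data, Pkp2, Pkp3 and Dsg2 were called higher in dysplasia than in unaltered tissue, and Perp had 0.40 (limma adjusted p = 0.0955). Adenocarcinoma, whose airway marker mean was the lowest of the 4 group means (7.01), was called higher than dysplasia for Perp in that fit, by 0.85 (limma adjusted p = 0.0158). With non-transgenic replicates 4 and 5 and unaltered replicate 3 left out, also chosen after seeing the data, Dsg2 was lower in adenocarcinoma than in dysplasia (log2 fold change -0.31; limma adjusted p = 0.0279) and higher than in unaltered tissue by 0.48 (limma adjusted p = 0.00139). The airway marker means of adenocarcinoma (6.37 to 7.39) and dysplasia (8.73 to 8.84) do not overlap. The covariate fit therefore cannot separate airway content from group between them. Whether airway cells make the Dsg2 and Perp differences was not tested.

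**Figure D5:**
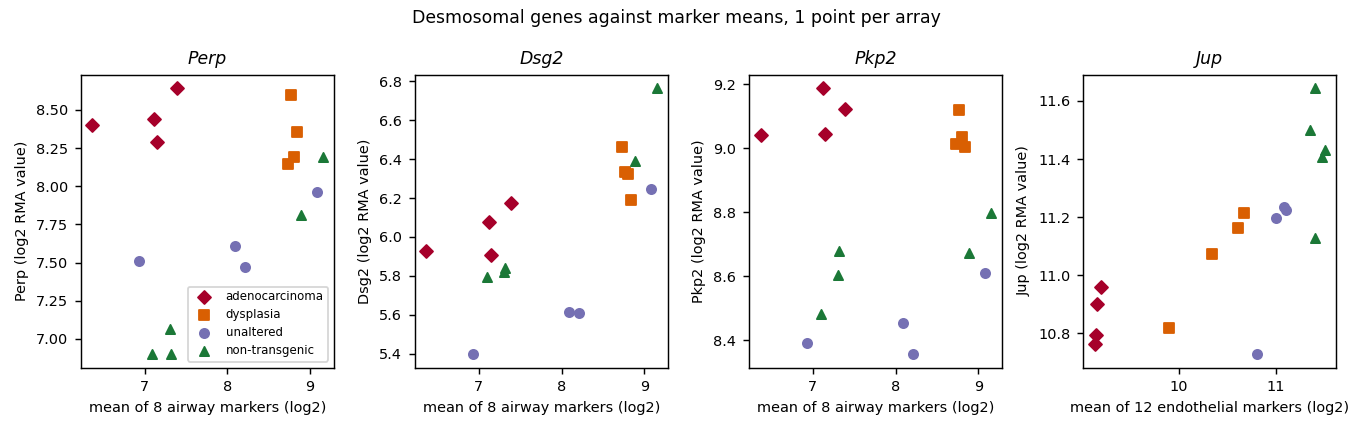
Log2 values of Perp, Dsg2 and Pkp2 (y axes) against the mean of 8 airway markers, and of Jup against the mean of 12 endothelial markers (x axes), with 1 point for each of the 17 arrays and groups by colour and shape. Non-transgenic replicates 4 and 5 lie at airway means of 8.89 and 9.15 with Perp at 7.81 and 8.19, and the adenocarcinomas lie at 6.37 to 7.39 with Perp at 8.29 to 8.64.

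General epithelial markers differed between the groups as well. The mean of 9 general epithelial markers was 10.66 to 10.71 in adenocarcinoma, 10.08 to 10.47 in dysplasia, 9.11 to 9.37 in unaltered tissue and 8.86 to 9.47 in non-transgenic lung. When this mean was subtracted on each array, 7 of 8 genes were lower in dysplasia than in unaltered tissue without overlap, all but Dsg2, as were 79.0% of all transcript clusters. In adenocarcinoma against non-transgenic lung 7 of 8 were lower, all but Perp, as were 91.0% of all transcript clusters. The counts are near those shares. Without the subtraction, the log2 fold changes of the 8 genes were all under that of the marker mean, which was 1.01 in dysplasia and 1.53 in adenocarcinoma. That order depends on the markers used. The type II cell markers had median log2 fold changes of 0.39 and 0.78 in these comparisons. Pkp2 (0.59), Dsg2 (0.61) and Perp (0.69) lay above the first and Perp (1.07) above the second, with the other genes below.

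The 8 genes did not share 1 profile. Their mean profile over the 17 arrays, each gene centred on its own mean, was 0.16 in adenocarcinoma, 0.14 in dysplasia, -0.16 in unaltered tissue and -0.12 in non-transgenic lung. Pkp3 was nearest to it, with a root mean square difference of 0.106, and Jup and Perp were farthest, with 0.380 and 0.390. Of 14799 other genes, Gabarap, which codes for a ubiquitin-like protein of autophagy, had the smallest difference from the mean profile, 0.061 over 17 arrays. It was followed by Usp43, Cpne3, Atp5b, Sel1l, Reep3, Tmem176a and Mtpn, at 0.066 to 0.074. The log2 fold change of Gabarap was 0.33 in adenocarcinoma against non-transgenic lung and 0.33 in dysplasia against unaltered tissue. Gabarap was picked for likeness on these same arrays, so these values follow from the choice. Within groups, dysplasia replicate 3 was the highest array for 5 of 8 genes and unaltered replicate 3 for 5 of 8, and non-transgenic replicates 5 and 4 were highest for 4 and 3.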

How the data were processed

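RNA was measured on Affymetrix mouse exon arrays. Per the labels, the authors summarised probes into transcript clusters (core exons) with RMA in Expression Console, and deposited log2 values. GCOS is named in the submitters' processing notes, with its version not given. The genome build is not given in the sources used here. Values ran from 1.13 to 14.3 and were used unfiltered. On arrays, the number of arrays limits the precision.

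Groups came from the labels. One limma 3.58.1 (R 4.3.3) model of 4 group means over 17 arrays gave every comparison, with the animal as a random block (correlation 0.245), eBayes and Benjamini-Hochberg adjustment over 23238 transcript clusters, threshold 0.05. No sex term was used, since Y-linked genes went against labelled sex on 4 arrays. Pairs came from the animal labels: residuals of the same label correlated at 0.21, 0.08, 0.15 and -0.01, against -0.23 to 0.15 for other combinations. The analysis code was tested on simulated data.

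In all, 16 lists of 158 genes, 135 of them measured, were described by counts and medians. Named were all genes of the set, the 2 largest called changes of each list in adenocarcinoma against non-transgenic lung, genes paired by role, and the 8 nearest profiles. Other list genes were named after their values were seen. The genes of the set and the lists were chosen with earlier results of these data known. The alternatives were no block or a fixed block, sex and age terms, filters on low values, fits restricted to the groups compared, other scalings, eBayes with trend, array weights, and arrays left out.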

Additional observations from a re-analysis of the deposited data

Results flagged for a closer look

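Each gene was checked for an array far from the rest of its group, in 32 combinations of gene and group, and 2 were found, where chance gives about 1 in 20. Both were unaltered replicate 3. Jup was 10.73 there, below the other 3 unaltered arrays, at 11.20 to 11.23. Dsc2 was 4.23 there, above the other 3, at 3.76 to 3.78. On this array the cardiac muscle marker mean was 7.21 and the airway marker mean 9.08, both the highest of the unaltered group.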

How the results depend on the processing

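Of 21 calls, 5 held in every alternative: Pkp2 in dysplasia against unaltered tissue, dysplasia against non-transgenic lung and adenocarcinoma against non-transgenic lung, and Pkp3 and Jup in the last. The other 16 were lost in at least 1, and except where given the cause was not tested. Sex from Y-linked genes marks only non-transgenic replicates 4 and 5. That setting and leaving those arrays out gave the same fold changes, so they are not independent alternatives. Where a count of called genes moved by over 1.5 times or past 0, it was as follows. Dysplasia against unaltered tissue (5 genes): 2 with no replicate block, with a fixed replicate block (which could be fitted only on these 8 arrays), after quantile normalization, without the arrays naming 2 animals and without unaltered replicates 2 and 3, and 3 after cyclic loess and with the airway marker mean. Unaltered against non-transgenic (0): 2 with sex from Y-linked genes, a mean of at least 6, without non-transgenic replicates 4 and 5, with or without unaltered replicate 3, and with the airway mean, 1 with 1-symbol transcript clusters and after cyclic loess, and 3 with array weights and without non-transgenic replicates 1 to 3. Dysplasia against non-transgenic (5): 3 with no replicate block, without the arrays naming 2 animals, without non-transgenic replicates 1 to 3 and with the airway mean, 2 with labelled sex or age, and 1 with only the groups compared. Adenocarcinoma against non-transgenic (7): 4 with age and without non-transgenic replicates 1 to 3. Adenocarcinoma against dysplasia (0): 1 with sex from Y-linked genes, after quantile normalization and without non-transgenic replicates 4 and 5, 2 with array weights or also without unaltered replicate 3, and 3 with the airway mean. Adenocarcinoma against unaltered (3): 0 with age, and 6 with array weights, the airway mean or those 3 arrays left out. Difference between steps (1): 0 with no replicate block, age, the airway mean, without the arrays naming 2 animals and without unaltered replicates 2 and 3, 2 with sex from Y-linked genes, array weights and without non-transgenic replicates 4 and 5, and 3 without those and unaltered replicate 3.

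Leaving out each of the 17 arrays gave 2 to 5 genes in dysplasia against unaltered tissue, 0 to 2 in unaltered against non-transgenic, 3 to 5 in dysplasia against non-transgenic, 6 to 7 in adenocarcinoma against non-transgenic, 0 to 0 in adenocarcinoma against dysplasia, 2 to 5 in adenocarcinoma against unaltered and 0 to 1 for the difference between steps. Single arrays left out also turned signs of uncalled values: in dysplasia against unaltered tissue Jup ran from -0.13 to 0.024, Dsc2 from -0.011 to 0.13 and Evpl from -0.058 to 0.019, in unaltered against non-transgenic Pkp3 ran from -0.057 to 0.00094 and Ppl from -0.025 to 0.081, in adenocarcinoma against non-transgenic Dsg2 ran from -0.18 to 0.061, and against dysplasia Ppl ran from -0.068 to 0.028.

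Signs turned for values that had not been called. Dsg2 in adenocarcinoma against non-transgenic became 0.20 with sex from Y-linked genes, 0.11 with array weights, 0.20 without non-transgenic replicates 4 and 5 (also without unaltered replicate 3) and 0.27 with the airway mean. With the airway mean it became 0.39 against dysplasia, -0.12 for dysplasia against non-transgenic (-0.25 without non-transgenic replicates 1 to 3) and 0.060 for the steps, and with age -0.21 against unaltered. Perp became -0.56 in adenocarcinoma against dysplasia with age, 0.45 for the steps with the airway mean and -0.36 in unaltered against non-transgenic without non-transgenic replicates 1 to 3. Dsc2 in dysplasia against unaltered became -0.032 after quantile normalization, -0.0075 without the arrays naming 2 animals and -0.077 with the airway mean, and -0.0092 for the steps with age. Pkp3 in unaltered against non-transgenic became 0.0045 with labelled sex, 0.0025 with array weights, 0.025 with sex from Y-linked genes and without non-transgenic replicates 4 and 5, 0.037 without unaltered replicate 3 too, and 0.11 after either scaling, and 0.0075 for the steps after quantile normalization. Ppl in unaltered against non-transgenic became -0.053 with sex from Y-linked genes and without non-transgenic replicates 4 and 5, -0.063 with array weights, -0.011 without unaltered replicates 2 and 3 and -0.088 without those 3 arrays, and in adenocarcinoma against dysplasia 0.0085 after quantile normalization and 0.016 with array weights. Pkp2 became -0.11 in adenocarcinoma against dysplasia with age, Evpl -0.00098 in dysplasia against non-transgenic without non-transgenic replicates 1 to 3, and Jup 0.0029 in dysplasia against unaltered without the arrays naming 2 animals.

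Over all transcript clusters the calls in unaltered against non-transgenic were 574 higher and 2743 lower as deposited, 971 and 822 after quantile normalization and 984 and 971 after cyclic loess. In dysplasia against unaltered, cyclic loess gave 2297 higher and 2032 lower. In adenocarcinoma against unaltered they were 3903 higher and 2338 lower, and 3052 and 3140 after cyclic loess, and in adenocarcinoma against dysplasia 1042 and 1738, and 1507 and 1555 after quantile normalization. For the steps they were 107 and 607, 243 and 319 after quantile normalization and 135 and 387 after cyclic loess. Total calls over all settings ran from 1839 to 5705, 180 to 4754, 2394 to 5662, 4308 to 10216, 352 to 5378, 1483 to 7486 and 23 to 2839, in the order of comparisons above. As shares of the transcript clusters tested, these were 7.91% to 38.2%, 0.775% to 28.3%, 10.3% to 29.6%, 18.5% to 46.2%, 1.51% to 23.1%, 6.38% to 44.2% and 0.099% to 12.2%. Whether the counts of called genes moved with these totals was not tested. Filters on low values left no value for Dsc2, and a mean over transcript clusters changes nothing, since each gene has 1. The airway covariate and the joint removal of those 3 arrays were chosen after seeing the data. Dsc2 lies low on every array, under the lower quartile of each. Its SE in dysplasia against unaltered tissue, 0.099, lay between those of Pkp3 (0.060) and Perp (0.21).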

Other observations

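Marker lists of other cell types describe the tissue in which the desmosomal genes were measured. Over all transcript clusters 13.6% were higher and 16.4% lower in adenocarcinoma against non-transgenic lung, and 15.1% higher and 5.32% lower in dysplasia against unaltered tissue. Of 10 type II cell markers, 9 were higher in adenocarcinoma than in non-transgenic lung, among them Sftpd by 1.39 and Sftpb by 1.02 on the log2 scale, and 9 were higher in dysplasia than in unaltered tissue. Of 7 measured type I cell markers, 5 were lower and 1 higher in adenocarcinoma, with Rtkn2 at -2.01 and Hopx at -1.82, and 3 were lower and 1 higher in dysplasia. The largest falls among the endothelial markers in adenocarcinoma were Cldn5 at -3.12 and Ramp2 at -3.05.

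Of 9 fibroblast markers, 4 were lower and 3 higher in adenocarcinoma than in non-transgenic lung, with Itga8 at -3.88 and Tcf21 at -3.65, and 5 were lower in dysplasia than in unaltered tissue. Mesothelial markers were lower for 4 of 5 in both comparisons, with Upk1b at -2.97 and Msln at -1.52 in adenocarcinoma. Of 9 measured leukocyte markers, 7 were lower and 1 higher in adenocarcinoma, with S100a9 at -1.93 and Cd79a at -1.39, and 2 were lower in dysplasia. Of 8 airway markers, 1 was lower in adenocarcinoma, Scgb3a2 at -2.07, and 1 was higher in dysplasia, both near or under those shares. Cardiac muscle markers were lower for 4 of 7 in dysplasia than in unaltered tissue, where unaltered replicate 3 was highest, and had a median of -0.28 in adenocarcinoma against non-transgenic lung.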
